A study of Mus musculus with 15 samples.

Results

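The genes described here are 9 markers of T cells and natural killer (NK) cells, lymphocytes that can enter an injured artery: Cd3e, Cd3g, Cd4, Cd8a, Cd2, Lck, Nkg7, Gzma and Ncr1. They were taken as a list of names and looked up by gene symbol or earlier symbol among probe sets that carry exactly 1 symbol. Each of 8 members matched 1 probe set, of 22180 genes measured in all. Lck, the kinase that starts signalling below the T cell receptor, was not analysed here.

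RNA of whole carotid arteries was measured on 15 Affymetrix arrays, 5 days after the left common carotid artery of female C57Bl/6J mice aged 21 to 22 weeks had been tied off. Ligated arteries came from Has3-deficient mice (3 arrays, numbered 3, 5 and 6) and from wildtype mice (4 arrays). Non-ligated arteries likewise came from Has3-deficient mice (4 arrays) and from wildtype mice (4 arrays). Has3 is one of the enzymes that make hyaluronan, a sugar polymer of the matrix, and the labels do not say how the gene was disrupted. Labels do not say which samples share a mouse or whether each is a separate mouse, and the p-values therefore cover only the spread among the deposited samples, which may be technical. The tissue was the whole vessel after adherent wound tissue had been taken off.

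T cells recognise peptides on MHC molecules through a receptor whose signal is carried into the cell by the CD3 chains, with CD4 (for MHC class II) or CD8 (for MHC class I) as co-receptor. NK cells carry no such receptor and read activating and inhibitory surface receptors, among them NKp46, the product of Ncr1. Both NK cells and cytotoxic T cells kill by releasing granules that hold granzymes. In arteries, T cells are found mainly in the adventitia and in lesions.

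Cytotoxic and NK genes of the mouse are known to be regulated by RUNX factors, and T cell receptor genes by ETS factors among others. The promoters of 3 cytotoxic and NK members, which share a ligation response in wildtype arteries, and that of Cd3e are therefore shown (RefSeq, build GRCm38.p6, each written 5′ to 3′ on the strand of the gene, from 250 bases before to 50 after its start). In the first 3, capitals mark TGTGGT, the RUNX core, or the same letters on the other strand, ACCACA; in Cd3e they mark AGGAAG, an ETS-type core, or CTTCCT. For Ncr1 the table held 2 overlapping windows, and the first is shown.
Nkg7, chr7:43436888-43437187, plus strand: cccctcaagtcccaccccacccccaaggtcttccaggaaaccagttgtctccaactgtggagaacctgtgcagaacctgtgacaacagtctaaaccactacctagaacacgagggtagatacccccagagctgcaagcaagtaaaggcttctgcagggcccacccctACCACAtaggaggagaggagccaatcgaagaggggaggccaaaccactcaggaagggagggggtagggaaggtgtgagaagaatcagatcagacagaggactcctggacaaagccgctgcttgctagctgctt
Gzma, chr13:113100932-113101231, minus strand: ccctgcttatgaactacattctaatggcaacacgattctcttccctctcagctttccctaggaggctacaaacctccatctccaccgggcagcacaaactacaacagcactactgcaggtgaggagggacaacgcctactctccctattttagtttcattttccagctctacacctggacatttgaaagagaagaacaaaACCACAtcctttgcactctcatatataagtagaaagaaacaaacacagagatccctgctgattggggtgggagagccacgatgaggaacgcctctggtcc
Ncr1, chr7:4337465-4337764, plus strand: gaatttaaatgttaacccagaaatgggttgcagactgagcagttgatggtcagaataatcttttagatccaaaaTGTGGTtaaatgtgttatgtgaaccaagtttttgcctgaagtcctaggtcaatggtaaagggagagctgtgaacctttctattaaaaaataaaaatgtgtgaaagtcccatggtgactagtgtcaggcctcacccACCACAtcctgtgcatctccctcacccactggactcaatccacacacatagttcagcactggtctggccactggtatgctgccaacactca
Cd3e, chr9:45009562-45009861, minus strand: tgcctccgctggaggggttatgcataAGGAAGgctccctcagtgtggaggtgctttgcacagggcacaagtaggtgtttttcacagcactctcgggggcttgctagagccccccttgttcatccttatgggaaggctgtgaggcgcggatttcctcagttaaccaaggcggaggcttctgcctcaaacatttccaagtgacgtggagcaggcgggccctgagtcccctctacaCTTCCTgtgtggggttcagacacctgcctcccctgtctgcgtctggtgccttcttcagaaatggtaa

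Windows were found for 6 measured members: Cd3e, Cd3g, Cd8a, Nkg7, Gzma and Ncr1. TGTGGT on either strand was in the windows of Nkg7, Gzma and Ncr1 and in 16.8% of all 32851 windows. Ncr1 held it at 2 places, beginning at base -176 and base -41 counted from the start, Nkg7 at -83 and Gzma at -50. AGGAAG on either strand was in the windows of Cd3e and Nkg7 and in 35.4% of all windows. The third motif searched, CAGGTG on either strand (an E box), was in those of Cd3e, Cd3g and Gzma and in 20.2% of all. None of the 3 motifs holds the letters of another, and a match describes the letters only.

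Every value below is the deposited log2 value of a gene in an array, and each probe set has been centred on its median. This removes the levels, and no gene's level can be set against another's; nor can the absence of a gene from the tissue be seen. A difference of 1 is 2-fold. Genes with an adjusted p under 0.05 in limma, by the method of Benjamini and Hochberg over all 22180 genes, are said to have passed. In whole arteries, more cells of a type and more RNA per cell cannot be told apart. The array medians lay within 0.017 of 0 and no arrays held identical values. The probe set of Has3 itself ranged from -0.23 to 0.10 in Has3-deficient ligated and from -0.084 to 0.58 in wildtype ligated arteries, and from -0.083 to 0.41 in Has3-deficient non-ligated and from -0.075 to 0.22 in wildtype non-ligated ones. These ranges overlap, so the probe set does not check the genotype labels.

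**Figure D1:**
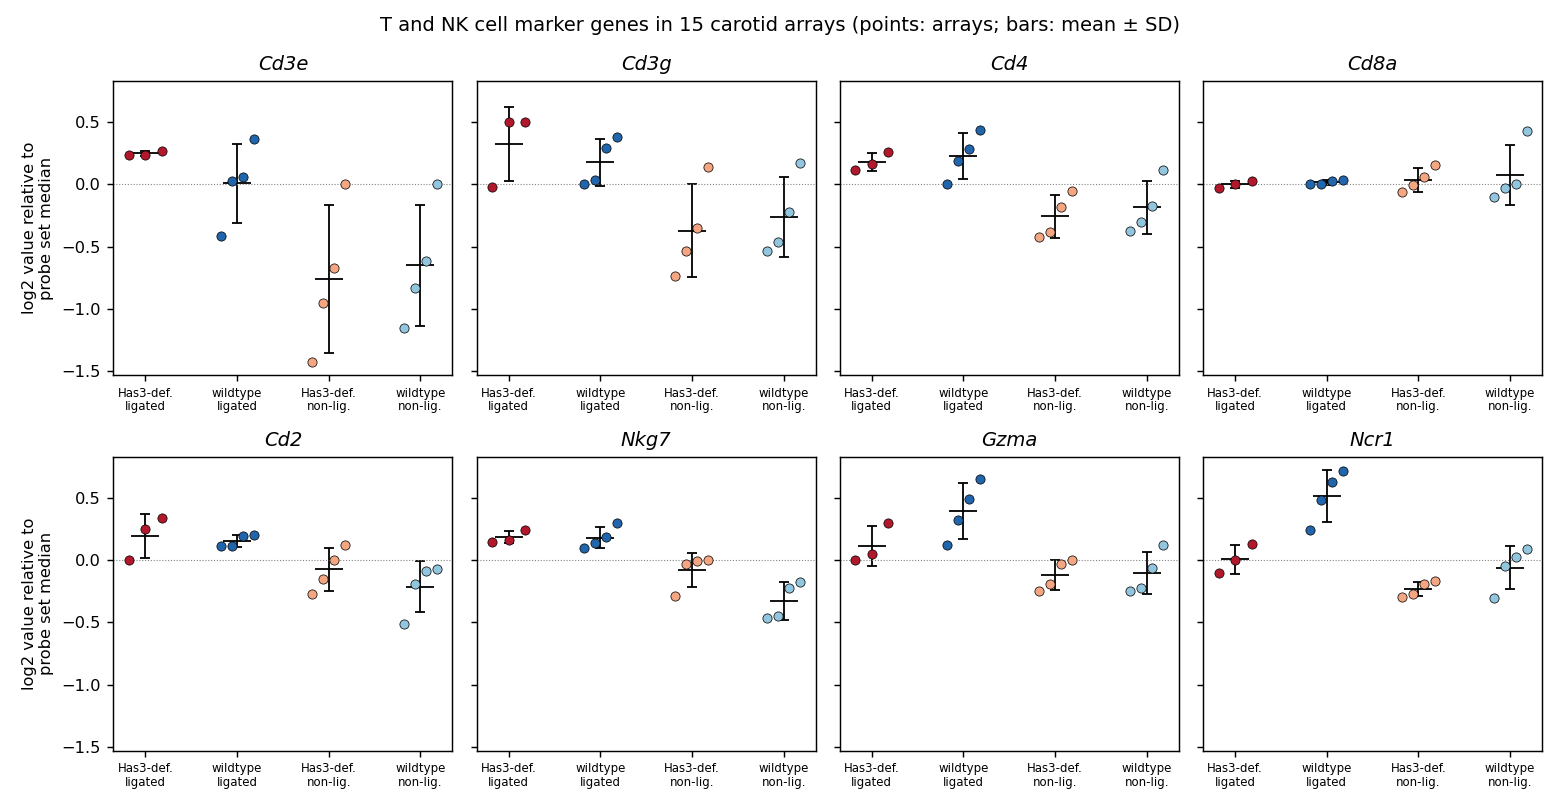
Log2 value relative to the probe set median (vertical axis) of the 8 measured genes in each of the 15 arrays, by group. Points are arrays and bars the mean ± SD; the Cd3e values of non-ligated arteries run from -1.42 to 0.0040, while the values of Cd8a in ligated arteries stay between -0.027 and 0.034.

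In Has3-deficient arteries ligation was followed by rises of Cd3e and Cd3g, chains of the T cell receptor complex. Cd3e, the CD3 epsilon chain, was at 0.24, 0.27 and 0.23 in the ligated arteries of Has3-deficient mice, against -0.67, -1.42, -0.95 and 0.0040 in their non-ligated ones. All 3 ligated arrays lay above all 4 non-ligated arrays. In wildtype mice Cd3e was at -0.42, 0.058, 0.36 and 0.029 in ligated arteries, against -1.15, -0.83, 0 and -0.62 in non-ligated ones. Here the groups overlapped, because 1 ligated array was low and 1 non-ligated array, replicate 3, was high. Cd3e rose by 1.01 ± 0.30 log2 units (± standard error, 2.01-fold, adjusted p = 0.0308, limma) in Has3-deficient arteries, while in wildtype arteries the difference was 0.66 ± 0.28 (adjusted p = 0.100).

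Cd3g, the gamma chain of CD3, lies beside Cd3e in the genome with Cd3d between them. Cd3g was at -0.021, 0.50 and 0.50 in Has3-deficient ligated arteries, against -0.35, -0.54, -0.74 and 0.14 in non-ligated ones. In wildtype mice it was at 0.033, 0.29, 0 and 0.38 in ligated arteries, against -0.54, -0.22, 0.17 and -0.46 in non-ligated ones. The groups overlapped in both genotypes, each time through the same non-ligated arrays that were high for Cd3e, replicate 4 of Has3-deficient and replicate 3 of wildtype mice. Cd3g rose by 0.70 ± 0.21 (1.62-fold, adjusted p = 0.0341, limma) in Has3-deficient arteries, while the wildtype difference was 0.44 ± 0.20 (adjusted p = 0.120). Cd3d, the remaining chain of the cluster, was at a difference of -0.039 ± 0.093 in Has3-deficient and 0.22 ± 0.086 in wildtype arteries and passed in neither.

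Of the co-receptors, Cd4 rose and Cd8a did not pass. Cd4 was at 0.26, 0.17 and 0.11 in Has3-deficient ligated arteries, against -0.38, -0.42, -0.18 and -0.050 in non-ligated ones. In wildtype mice Cd4 was at 0, 0.29, 0.44 and 0.19 in ligated arteries, against -0.38, -0.18, 0.11 and -0.30 in non-ligated ones. The groups were apart in Has3-deficient mice and overlapped in wildtype mice, through ligated array 1 and non-ligated array 3. Cd4 rose by 0.44 ± 0.13 (1.36-fold, adjusted p = 0.0265, limma) in Has3-deficient arteries. In wildtype arteries it rose by 0.41 ± 0.12 (1.33-fold, adjusted p = 0.0158, limma). Cd4 is also carried by some mouse dendritic cells.

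Cd8a, the alpha chain of CD8, was at 0, -0.027 and 0.031 in Has3-deficient ligated arteries, against -0.065, 0.16, -0.0064 and 0.060 in non-ligated ones. In wildtype mice Cd8a was at 0.028, 0, 0 and 0.034 in ligated arteries, against 0, -0.10, 0.43 and -0.030 in non-ligated ones. The 7 ligated arrays were close to each other and 1 wildtype non-ligated array, replicate 3, was high. The difference was -0.036 in Has3-deficient arteries (95% interval -0.25 to 0.18) and -0.059 in wildtype arteries (95% interval -0.26 to 0.14). Rises of this probe set's value as large as the estimates for Cd4, 0.44 and 0.41, lie outside these intervals. Those estimates have 95% intervals of their own, 0.17 to 0.71 and 0.16 to 0.67, and Cd4 was not tested against Cd8a. Whether the Cd8a probe set responds to Cd8a RNA cannot be seen in centred values, so the intervals of Cd8a do not exclude a rise of that RNA. Cd8a stood at exactly 0 in 4 arrays, and ties of this kind occur in 8813 of the 33793 probe sets. Cd8b1, the partner chain, was at -0.20 ± 0.18 and -0.045 ± 0.16 and did not pass either.

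Cd2, an adhesion receptor of T and NK cells that in the mouse is also found on B cells, rose in wildtype arteries. It was at 0.12, 0.20, 0.19 and 0.11 in wildtype ligated arteries, against -0.089, -0.51, -0.069 and -0.19 in non-ligated ones, with no overlap. In Has3-deficient mice it was at 0.25, 0.34 and 0 in ligated arteries, against -0.15, 0, -0.27 and 0.12 in non-ligated ones, which overlap. Cd2 rose by 0.37 ± 0.11 in wildtype arteries (1.29-fold, adjusted p = 0.0183, limma), and the Has3-deficient difference was 0.27 ± 0.12 (adjusted p = 0.135).

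The granule and NK receptor genes rose in wildtype arteries. Nkg7, a membrane protein of cytotoxic granules, was at 0.18, 0.14, 0.10 and 0.29 in wildtype ligated arteries, against -0.47, -0.45, -0.17 and -0.23 in non-ligated ones, and rose by 0.51 ± 0.083 (1.42-fold, adjusted p = 0.000305, limma). Gzma, the serine protease granzyme A, was at 0.33, 0.12, 0.49 and 0.65 in wildtype ligated arteries, against -0.067, -0.25, 0.12 and -0.22 in non-ligated ones, and rose by 0.50 ± 0.12 (1.42-fold, adjusted p = 0.00454, limma). All ligated arrays were above all non-ligated arrays for both genes, though for Gzma ligated array 2 (0.1236) and non-ligated array 3 (0.1216) almost touched. Ncr1 was at 0.72, 0.24, 0.62 and 0.49 in wildtype ligated arteries, against -0.048, -0.30, 0.087 and 0.024 in non-ligated ones. It rose by 0.58 ± 0.10 (1.49-fold, adjusted p = 0.000642, limma), also without overlap.

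In Has3-deficient arteries these same 3 genes had smaller differences that did not pass. Nkg7 was at 0.16, 0.24 and 0.15 in ligated arteries, against -0.030, -0.0056, -0.29 and 0 in non-ligated ones, a difference of 0.27 ± 0.089 (adjusted p = 0.0539, limma). Gzma was at 0.049, 0.30 and -0.00078 in ligated arteries, against -0.25, 0, -0.19 and -0.029 in non-ligated ones, a difference of 0.23 ± 0.13 (adjusted p = 0.248). The groups were apart for Nkg7 and overlapped for Gzma by less than 0.001. Ncr1 was at -0.10, 0.13 and 0 in ligated arteries, against -0.17, -0.19, -0.29 and -0.27 in non-ligated ones. Its groups were apart, with a difference of 0.24 ± 0.11 (adjusted p = 0.166).

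**Figure D2:**
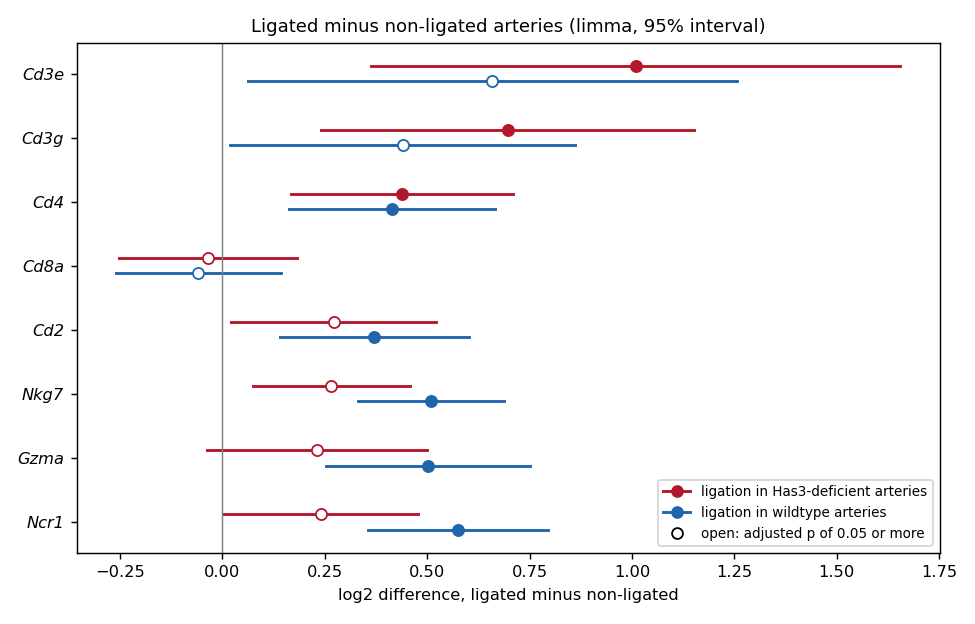
Log2 difference, ligated minus non-ligated arteries (horizontal axis), of each gene in Has3-deficient and wildtype mice, with the 95% interval from limma; filled points passed at an adjusted p under 0.05. Cd3e and Cd3g passed in Has3-deficient mice, Cd2, Nkg7, Gzma and Ncr1 in wildtype mice, Cd4 in both, and Cd8a lies near 0 in both.

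By count, 3 of 8 members rose in Has3-deficient arteries (Cd3e, Cd3g and Cd4) and 0 fell, where 10.2% of all genes rose and 8.08% fell. In wildtype arteries 5 of 8 rose (Cd4, Cd2, Nkg7, Gzma and Ncr1) and 0 fell, where 13.2% of all genes rose and 14.6% fell. Ligated arrays lay wholly above non-ligated ones for 4 members in Has3-deficient mice (Cd3e, Cd4, Nkg7 and Ncr1), against 13% of all genes. In wildtype mice this held for 4 members (Cd2, Nkg7, Gzma and Ncr1), against 14% of all genes. The median difference of the 8 was 0.27 in Has3-deficient and 0.47 in wildtype arteries, where the medians of all genes were -0.030 and 0.0050. The difference was positive for 7 of 8 members in each genotype, Cd8a being the exception.

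For Cd3e, Cd3g and Cd4 in Has3-deficient arteries the side of the threshold, but not the direction, changed with single arrays. Leaving out each array in turn gave differences of 0.79 to 1.26 for Cd3e, 0.57 to 0.87 for Cd3g and 0.38 to 0.51 for Cd4. The Cd3e call ended without non-ligated array 1 (1.04), 2 (0.79) or 3 (0.95), and without ligated array 3 (1.01), 5 (0.998) or 6 (1.02). That of Cd3g ended without non-ligated array 1 (0.70), 2 (0.64) or 3 (0.57). It also ended without array 5 or array 6 of the ligated group (0.61 each). That of Cd4 ended without non-ligated array 1 (0.40) or 2 (0.38), and without any of the ligated arrays 3 (0.40), 5 (0.44) and 6 (0.47). With the 2 groups alone in the fit Cd3e (adjusted p = 0.066) and Cd3g (adjusted p = 0.0898) did not pass. Non-ligated array 3 was also the array with the highest mean over 8 sympathetic neuron and chromaffin cell genes, at 4.32, against -0.13 to 1.98 in the other Has3-deficient non-ligated arrays; the part of this tissue in the result was not tested.

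In wildtype arteries the calls of Nkg7, Gzma and Ncr1 held without each of the 15 arrays in turn. Cd4 did not pass without non-ligated array 1 (0.35) or ligated array 3 (0.34), and Cd2 did not without non-ligated array 2 (0.27). Without wildtype non-ligated array 3, Cd3e (0.88, adjusted p = 0.0282) and Cd3g (0.58, adjusted p = 0.0403) passed as well, giving 7 members. Cd3e (0.66) also passed without Has3-deficient non-ligated array 4, which enters this comparison only through the shared estimate of spread. Wildtype non-ligated array 3 had the highest mean of the 8 members among non-ligated arrays (0.085, against -0.36 to -0.25 in the other wildtype ones). Its mean over 9 B cell genes was also the highest of the 8 non-ligated arrays, 0.18 against -0.13 to -0.096 in the other wildtype ones, while its mean over pan-leukocyte genes, -0.33, lay within their range of -0.53 to -0.19. The part of other lymphoid cells in its values was not tested.

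No member passed between genotypes. In ligated arteries 0 of 8 passed, as did 0% of all genes in limma, of which 910 had an unadjusted p under 0.05. Among members Ncr1 and Gzma had such an unadjusted p. Ncr1 was at -0.10, 0.13 and 0 in Has3-deficient ligated arteries, against 0.72, 0.24, 0.62 and 0.49 in wildtype ligated ones. Every Has3-deficient array lay below every wildtype array, which held in this direction for 3.35% of all genes. The difference for Ncr1 was -0.51 ± 0.11 (95% interval -0.75 to -0.27, unadjusted p = 0.000446, adjusted p = 0.9999 in limma). The difference stayed between -0.68 and -0.41 in all 23 alternatives and passed in none. For Gzma it was -0.28 ± 0.13 (95% interval -0.55 to -0.014, adjusted p = 0.9999), with overlap.

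For the other 6 members the genotype difference in ligated arteries was closer to 0. Cd3e was at 0.24 (95% interval -0.41 to 0.89), Cd3g at 0.15 (-0.31 to 0.60), Cd4 at -0.049 (-0.32 to 0.22) and Cd8a at -0.014 (-0.23 to 0.20) in Has3-deficient minus wildtype ligated arteries. Cd2 was at 0.041 (-0.21 to 0.29) and Nkg7 at 0.0055 (-0.19 to 0.20). The interval was widest for Cd3e and narrowest for Nkg7.

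In non-ligated arteries 0 of 8 members passed, against 0.0857% of all genes. Nkg7 was at -0.030, -0.0056, -0.29 and 0 in Has3-deficient non-ligated arteries, against -0.47, -0.45, -0.17 and -0.23 in wildtype ones. Array 3 of the Has3-deficient group overlapped the wildtype values and the other 3 lay above them. The difference of 0.25 ± 0.083 (unadjusted p = 0.00953, adjusted p = 0.211, limma) was the only one of the 8 with an unadjusted p under 0.05. The other 7 differences ran from -0.17 for Ncr1 to 0.14 for Cd2.

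The ligation response itself was compared between genotypes by the interaction, Has3-deficient response minus wildtype response. It passed for 0 of 8 members and 0% of all genes in limma, of which 1802 had an unadjusted p under 0.05. The differences were 0.35 ± 0.41 for Cd3e and 0.26 ± 0.29 for Cd3g, and 0.024 ± 0.17 for Cd4 and 0.023 ± 0.14 for Cd8a. For Cd2 the difference was -0.10 ± 0.16. For the granule and NK genes it was -0.24 ± 0.12 for Nkg7, -0.27 ± 0.17 for Gzma and -0.34 ± 0.15 for Ncr1, the last with an unadjusted p = 0.0437 and an adjusted p = 0.608 (limma). That CD3 genes passed in one genotype and granule genes in the other is therefore not shown to be a difference between genotypes.

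**Figure D3:**
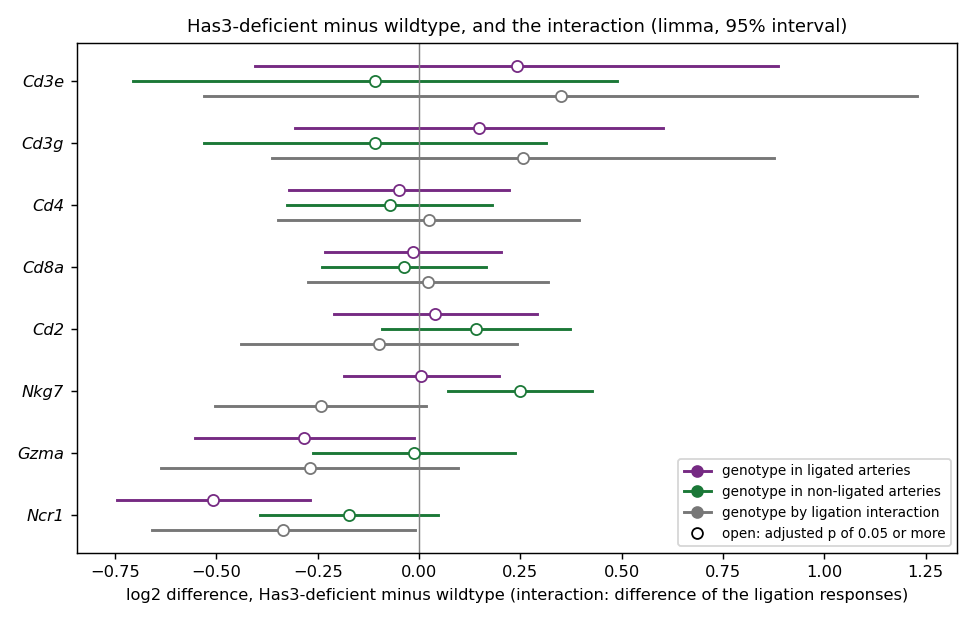
Log2 difference, Has3-deficient minus wildtype (horizontal axis), of each gene in ligated arteries and in non-ligated arteries, and the interaction (the difference of the ligation responses), with 95% intervals from limma; all points are open because none passed. Ncr1 in ligated arteries, at -0.51, lies farthest from 0, and the intervals of Cd3e are the widest.

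In the order of group means, Has3-deficient ligated arteries were highest for Cd3e (0.25, then 0.0080 in wildtype ligated, -0.65 in wildtype non-ligated and -0.76 in Has3-deficient non-ligated arteries). None of the neighbours in this order differed with an adjusted p under 0.05. For Ncr1 wildtype ligated arteries were highest (0.52), followed by Has3-deficient ligated (0.0084), wildtype non-ligated (-0.059) and Has3-deficient non-ligated arteries (-0.23). For Nkg7 both ligated groups were level at 0.18, above Has3-deficient non-ligated (-0.081) and wildtype non-ligated arteries (-0.33).

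The spread within groups differed between members. Cd3e had a residual standard deviation of 0.44, larger than that of 97.0% of genes, and Cd3g one of 0.30, larger than that of 93.1%. Nkg7, at 0.12, was above 40.5% of genes. Within groups Cd3e also varied less after ligation in Has3-deficient mice (SD 0.020, n = 3, against 0.60, n = 4, in non-ligated arteries), a difference of spread that was not tested.

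Deviations of the 15 arrays from their group means were compared between members as a description. All pairs share the same arrays and normalization. Of 28 pairs 27 had a positive r, with a median of 0.41. The highest was Cd3e with Cd4 (0.83; 0.0676% of all genes had as high an r with Cd3e), followed by Cd3e with Cd3g (0.68; 0.703%). Gzma with Ncr1 stood at 0.51 and Cd8a with Gzma at 0.56. Wildtype non-ligated array 3 carried part of this: without it the median was 0.21 and 21 of 28 pairs were positive, Cd3e with Cd4 was at 0.75 and Cd3e with Cd8a at -0.37, against 0.34 with it.

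**Figure D4:**
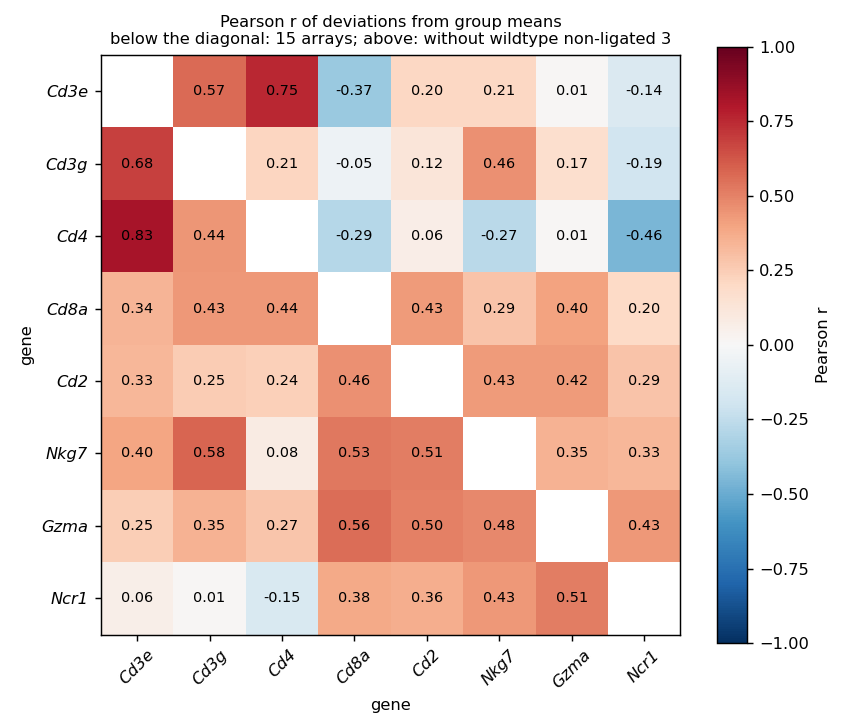
Pearson r between members of the deviations from group means, over all 15 arrays (below the diagonal) and without wildtype non-ligated array 3 (above it); colour runs from -1 to 1. Cd3e and Cd4 have the highest value on both sides of the diagonal, and the values of Cd8a with Cd3e, Cd3g and Cd4 are below 0 without that array.

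Among 9664 other genes with more than median spread (9665 for Nkg7), those most like a member by the same measure over 15 arrays were mostly no lymphocyte markers. For Cd4 these were Ccl12, a chemokine for monocytes (r = 0.90), Ccdc153 (0.88) and Lzts1 (0.845). For Cd8a they were Fcmr, the receptor for IgM on lymphocytes (0.86), Ly6g6c (0.85) and Wdr95 (0.84). For Nkg7 they were Lmcd1 (0.91), Clic4 (0.91) and Cd79b, a chain of the B cell receptor (0.89). For Cd3e they were Gpn1 (0.89), Krtap3-1 (0.89) and Ifitm3 (0.86). For Cd3g they were Rpl5 (0.90), a ribosomal protein, Stag1 (0.87) and Dact2 (0.85). Cd2 had Bambi-ps1 (0.87), Pkdcc (0.85) and Col26a1 (0.84). Gzma had Vmo1 (0.85), Olfr774 (0.81) and Mmp28 (0.78). Ncr1 had Fam205a2 (0.84), Popdc2 (0.83) and Mid1 (0.82). What r the best of so many genes reaches by chance was not tested. The highest r was between 0.84 and 0.91 for every member.

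Other genes of the T cell receptor pathway changed less uniformly. Of 17 measured of 19 listed, 2 rose in Has3-deficient arteries and 6 in wildtype arteries, and 0 fell in either, with median differences of 0.094 and 0.21. The count in Has3-deficient arteries is near the share of all genes that rose there, 10.2%, against 13.2% of all genes in wildtype arteries. In Has3-deficient arteries Lcp2 (2.99 ± 0.18), the adaptor SLP-76, and Fyb (2.65 ± 0.13), its partner, rose; both also act in myeloid cells. In wildtype arteries Fyb (2.68 ± 0.12), Lcp2 (2.66 ± 0.17), Thy1 (1.01 ± 0.32), which fibroblasts also carry, and Lat (0.51 ± 0.13), the adaptor phosphorylated below the receptor, rose. Zap70, the kinase recruited to CD3, did not pass in Has3-deficient (-0.11 ± 0.11) or wildtype arteries (0.26 ± 0.10), and neither did Cd28 (-0.012 ± 0.091 and 0.10 ± 0.084).

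Of 19 measured of 22 listed genes for NK receptors and cytotoxic granules, 9 rose in Has3-deficient and 11 in wildtype arteries and 0 fell. The rest, 10 in Has3-deficient and 8 in wildtype arteries, did not pass. Of all genes, 10.2% rose in Has3-deficient and 13.2% in wildtype arteries. Tyrobp (3.24 ± 0.21 in Has3-deficient and 3.19 ± 0.20 in wildtype arteries), a signalling adaptor of NK and myeloid receptors, rose most. Il18rap rose by 2.25 ± 0.21 in Has3-deficient and 2.30 ± 0.19 in wildtype arteries, and Fcgr3, an Fc receptor of NK and myeloid cells, by 2.13 ± 0.18 and 2.05 ± 0.17. Ccl5, a chemokine of activated T and NK cells, rose by 1.80 ± 0.20 and 1.604 ± 0.18. Which cells carried Il18rap and Ccl5 was not tested. Among genes closer to NK cells, Klrd1 (CD94) rose by 1.08 ± 0.11 and 0.96 ± 0.10 and Klrk1 (NKG2D) by 0.50 ± 0.12 and 0.63 ± 0.11. Klrb1c rose in wildtype arteries (0.24 ± 0.062) and did not pass in Has3-deficient ones (0.11 ± 0.067). Klre1 (-0.013 ± 0.062 and 0.024 ± 0.058) and Klrg1 (0.095 ± 0.084 and 0.13 ± 0.078) passed in neither genotype. The same held for Gzmk (-0.061 ± 0.12 and 0.13 ± 0.11) and Tbx21 (-0.16 ± 0.074 and 0.12 ± 0.069). Prf1, perforin, did not pass (-0.17 ± 0.095 and -0.061 ± 0.088), nor did Eomes (0.0046 ± 0.084 and -0.041 ± 0.078), a transcription factor of NK cells. Gzmb, another granzyme, rose in wildtype arteries (0.39 ± 0.069) and did not pass in Has3-deficient ones (0.17 ± 0.075). Ctsw (0.31 ± 0.088 and 0.63 ± 0.082) and Il2rb (0.63 ± 0.13 and 0.57 ± 0.12) rose in both genotypes.

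Genes of T cell subsets and activation rose in 4 of 18 measured in Has3-deficient arteries, with 1 fallen, and in 6 of 18 in wildtype arteries. The shares of all genes that rose were 10.2% in Has3-deficient and 13.2% in wildtype arteries, and 8.08% fell in Has3-deficient arteries. Il7r, the receptor for interleukin 7, rose by 4.12 ± 0.30 in Has3-deficient and 4.50 ± 0.28 in wildtype arteries, far more than any of the 8 members. Which cells carried Il7r was not tested. Ccr7, a homing receptor of naive T cells and mature dendritic cells, rose by 1.27 ± 0.19 and 1.22 ± 0.18, Il2ra by 0.77 ± 0.14 and 0.82 ± 0.13 and Foxp3, the factor of regulatory T cells, by 0.48 ± 0.12 and 0.33 ± 0.11. S1pr1 rose in wildtype arteries (0.53 ± 0.17) and did not pass in Has3-deficient ones (0.54 ± 0.19). Gata3, a factor of T helper cells that other cells of the artery may also use, fell by 0.33 ± 0.070 in Has3-deficient arteries. In these arteries the mean over the sympathetic neuron and chromaffin cell genes was 1.91 without and 0.22 with ligation. The part of that tissue in the fall of Gata3 was not tested. Ifng, the interferon of T and NK cells, was at 0.021 ± 0.069 and 0.044 ± 0.064 and did not pass. Ctla4 (0.15 ± 0.080 and 0.20 ± 0.074) and Icos (0.051 ± 0.059 and 0.14 ± 0.055) did not pass in either genotype. Neither did Lef1 (-0.41 ± 0.28 and -0.047 ± 0.26) or Bcl11b (-0.0090 ± 0.15 and -0.042 ± 0.14).

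Of 9 measured chemokines and cytokines that act on T and NK cells, 4 rose in each genotype, and 1, Il7 (-0.19 ± 0.054), fell in wildtype arteries. Among all genes, 10.2% rose in Has3-deficient arteries, and 13.2% rose and 14.6% fell in wildtype arteries. Cxcl16 rose by 2.02 ± 0.10 in Has3-deficient and 1.94 ± 0.096 in wildtype arteries, and Cxcl10, a ligand of the T cell chemokine receptor Cxcr3, by 1.597 ± 0.43 and 1.77 ± 0.40. Cxcl9 rose in wildtype arteries (0.79 ± 0.22) and did not pass in Has3-deficient ones (0.32 ± 0.24). Cxcl11 (0.12 ± 0.11 and 0.091 ± 0.10) passed in neither genotype.

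Macrophage, neutrophil and pan-leukocyte genes had larger median differences in the same arrays than the members. The medians of dendritic cell genes were close to those of the members, and those of B cell genes were smaller. Of 12 macrophage genes 12 rose in each genotype, with medians of 2.50 in Has3-deficient and 2.14 in wildtype arteries. For all genes the shares that rose were 10.2% and 13.2%. Of 10 neutrophil genes 9 rose in each (medians 3.23 and 3.29), and of 10 pan-leukocyte genes 10 rose in each (medians 2.97 and 2.84). Of 10 measured dendritic cell genes 5 rose in each genotype (medians 0.27 and 0.42), among them Itgax (3.52 ± 0.20 and 3.42 ± 0.18) and Flt3 (0.48 ± 0.14 and 0.78 ± 0.13). Siglech (-0.62 ± 0.17) fell in wildtype arteries, where 14.6% of all genes fell. Zbtb46 (-0.27 ± 0.15 and -0.26 ± 0.14) and Xcr1 (-0.17 ± 0.10 and 0.22 ± 0.096) passed in neither genotype. Nor did Batf3 (-0.032 ± 0.13 and 0.19 ± 0.12) or Ccr9 (0.058 ± 0.069 and 0.0088 ± 0.064). Which cells carried Itgax was not tested. The part of dendritic cells in the rise of Cd4 was not tested.

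B cell genes rose in 1 of 9 in each genotype, Cd22 (1.31 ± 0.17 and 1.14 ± 0.15), which is near the 10.2% and 13.2% of all genes that rose. Medians of the 9 were 0.072 and 0.082, and Cd79a (0.27 ± 0.20 and 0.12 ± 0.18) and Ms4a1 (-0.053 ± 0.078 and 0.043 ± 0.072) did not pass. Of 7 thymus genes 0 passed in either genotype, and of 7 lymph node genes 0 in Has3-deficient and 2 in wildtype arteries, Glycam1 (0.79 ± 0.20) and Cd177 (0.65 ± 0.14), the last also a neutrophil gene. Of 11 artery markers 6 fell in Has3-deficient and 7 in wildtype arteries, where 8.08% and 14.6% of all genes fell. An example was Lmod1 of smooth muscle (-1.04 ± 0.19 and -1.53 ± 0.17). Of the same 11, 3 rose in Has3-deficient arteries, Lum (1.075 ± 0.12) and Pdgfra (0.34 ± 0.098) of adventitial cells and Cdh5 (0.72 ± 0.15) of endothelium. In wildtype arteries 2 rose, Lum (0.69 ± 0.11) and Cdh5 (0.66 ± 0.14). Pecam1, also of endothelium, fell in Has3-deficient arteries (-0.64 ± 0.13). Vwf of endothelium (-0.51 ± 0.24) and Dpt of adventitial cells (0.17 ± 0.092) did not pass there. In wildtype arteries the mean of Pecam1 was -0.39 in ligated and 0.45 in non-ligated arrays. For Vwf these means were -0.15 and 0.26, and for Dpt -0.060 and 0.26. Fat genes fell in 3 of 7 in wildtype arteries and passed for 0 of 7 in Has3-deficient ones. Of 8 neuronal genes 0 passed in either genotype. Yet all 8 were lower after ligation in Has3-deficient arteries (median -1.67), 5 with an unadjusted p under 0.05 in limma. In wildtype arteries 7 of the 8 were lower (median -0.70). The mean over these genes ran from -0.13 to 4.32 in Has3-deficient non-ligated arrays and from -0.28 to 0.49 in Has3-deficient ligated ones. The part of neuronal tissue in the other differences was not tested.

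**Figure D5:**
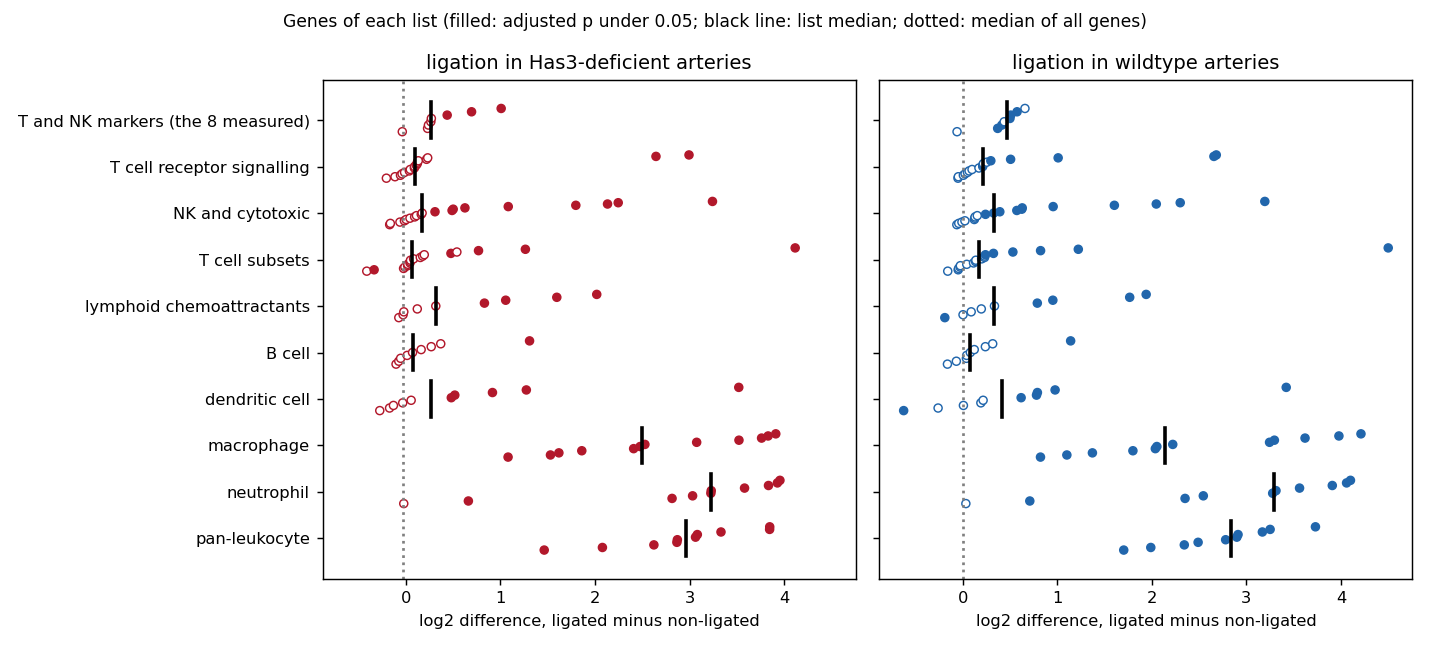
Log2 difference, ligated minus non-ligated (horizontal axis), of each measured gene of 10 lists, in Has3-deficient (left) and wildtype mice (right); filled points passed, the black line is the list's median and the dotted line the median of all genes. The 8 T and NK markers have medians of 0.27 and 0.47, against 2.50 and 2.14 for macrophage genes.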

How the data were processed

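Total RNA of carotid arteries (100 ng) was labelled with biotin for an Affymetrix array, per the labels. The authors deposited log2 values of 33793 probe sets in 15 arrays; in 33790 of them the median over the arrays is exactly 0. Base 2 was inferred from the value range; for normalization, software and annotation build nothing was found in the sources used here. Names of genes came from GEO's platform annotation, updated by Entrez identifier to RefSeq symbols of GRCm38.p6: 23521 probe sets carried 1 symbol, 1814 several and 8458 none listed. Probe sets of a gene were averaged, giving 22180 genes.

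One linear model with a mean for each of the 4 groups was fitted across all genes with limma 3.58.1 in R 4.3.3 (empirical Bayes, 11 residual and 2.69 prior degrees of freedom). A filter on dim genes was not possible, since centring removed the levels. The number of arrays limits the precision. The fit was tested on simulated data. Members and gene lists were chosen with earlier results of these data known, as were the promoter motifs. The text names all members, up to 4 passing genes of a list with the largest change, and for each member the genes most like it. Cd3d, Cd8b1, Zap70, Cd28, Klrd1, Klrk1, Prf1, Eomes, Foxp3, Ifng, Cxcl10, Cd79a, Ms4a1, Flt3, Lum, Pdgfra and Cdh5 were named for their roles, partly after their values were seen. Ctla4, Icos, Lef1, Bcl11b, Klrb1c, Klre1, Klrg1, Gzmk and Tbx21 were named after their values were seen, as list genes that did not pass, Klrb1c in Has3-deficient arteries only. Gzmb, Ctsw, Il2rb, Cxcl9, Cxcl11, Zbtb46, Xcr1, Batf3, Ccr9, Pecam1, Vwf and Dpt were also named after their values were seen, whether or not they passed. Same-numbered ligated and non-ligated wildtype arrays had deviations from group means that correlated by 0.028 to 0.16. For the Has3-deficient arrays numbered 3 the value was -0.058. Replicate numbers were not taken to pair samples, though such low correlations cannot exclude that same-numbered arteries share a mouse. The fit was repeated without each array, with a replicate block, a robust prior, array weights, quantile normalization or a common median, over all probe sets, with another probe set rule, and on the compared groups alone.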

Additional observations from a re-analysis of the deposited data

Results flagged for a closer look

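Nkg7 in Has3-deficient non-ligated array 3, at -0.29, lay far below the other 3 arrays of its group, which were between -0.030 and 0; its gap to the nearest was 0.895 of the group's range. It was the only such array among 24 groups of 4 arrays examined for the 8 members, and chance alone gives about 1 in 20. The same array had the highest mean of the neuronal genes.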

How the results depend on the processing

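Of 920 values of single genes under the alternatives, 858 kept their direction and their side of the threshold, 25 no longer passed, 9 newly passed and 28 changed direction; none of the 28 passed. The number of members that passed for ligation in Has3-deficient arteries was 3; it was 1 with only the 2 groups compared, 0 with a replicate block, and 0 to 4 when 1 array was left out. For ligation in wildtype arteries it was 5, and 4 to 7 over all alternatives; the replicate block gave 4, and 6 when fitted within wildtype alone. Nkg7 passed in Has3-deficient arteries with quantile normalization (0.30), a common median (0.27) and array weights (0.24), and without wildtype non-ligated array 1 or 3 (0.27 each). The counts between genotypes and for the interaction were 0 in every alternative run.

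The values that changed direction had not passed in the first place. With the replicate block the genotype difference in ligated arteries was -0.040 for Cd3e (0.24 without the block) and -0.16 for Cd3g (0.15 without), and the interaction was -0.053 for Cd3g (0.26 without), -0.091 for Cd4 and -0.078 for Cd8a; numbers 5 and 6 occur in 1 group only, so that this fit sees Has3-deficient ligated arteries through array 3. Leaving out 1 array gave -0.070 to 0.0048 for Cd8a under ligation in Has3-deficient and -0.12 to 0.060 in wildtype arteries. For genotype in ligated arteries it gave -0.031 to 0.14 for Cd2, -0.13 to 0.021 for Cd4 and -0.023 to 0.044 for Nkg7. For genotype in non-ligated arteries it gave -0.36 to 0.11 for Cd3e, -0.28 to 0.035 for Cd3g, -0.14 to 0.026 for Cd4, -0.097 to 0.082 for Cd8a and -0.061 to 0.062 for Gzma. For the interaction it gave -0.075 to 0.094 for Cd4 and -0.096 to 0.082 for Cd8a. Signal over background is unknown in centred values, and the cause of these changes was not tested.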
